A study of Mus musculus with 18 samples.

Results

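Heterochromatin is the compact, mostly silent part of the genome, and the genes described here encode 10 of the proteins that write, read or remove histone marks. They were taken by symbol from a table of RNA levels in mouse fibroblasts, and all 10 of the 10 listed symbols were found among 24445 symbols in the table. They are Suv39h1, Suv39h2, Setdb1, Ehmt1 and Ehmt2, which encode methyltransferases of lysine 9 of histone H3, Ezh2, which encodes the methyltransferase of lysine 27 of histone H3, Cbx1, Cbx3 and Cbx5, which encode the heterochromatin protein HP1 in its beta, gamma and alpha forms, and Sirt6, which encodes a deacetylase and mono-ADP-ribosyltransferase of chromatin. One transcript was used per symbol, the one with the highest mean level.

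The cells were primary fibroblasts grown from tail tips of mice aged 2 months and harvested at passage 5. There were 3 genotypes. Pro/Pro;Cas9/+ cells carry 2 copies of the progeria allele of Lmna and the Cas9 transgene, and +/+;Cas9/+ cells carry wild-type Lmna and the Cas9 transgene. Pro/+; +/+ cells carry 1 copy of the progeria allele and no Cas9, and serve as a control in which the guide RNAs have no nuclease. They are called Pro/Pro, wild-type Cas9 and Pro/+ cells from here on. Each mouse gave cells for 3 treatments, namely gMock, a guide without a match in the genome, and gLmna-1 or gLmna-2, both directed at Lmna, all carried by a lentivirus with an mCherry reporter and added with 4 µg/ml polybrene. Per the labels the great majority of cells in every culture were mCherry-positive, and none were sorted or selected, so each library mixes transduced and other cells. With 2 mice per genotype this gave 18 libraries in 9 groups of 2. It is not stated if 1 of the Pro/+ mice, whose name joins a pair of numbers, was 1 animal or a pool.

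Methyl groups on lysine 9 of histone H3 are laid down by SUV39H1 and SUV39H2 at pericentromeric repeats, by SETDB1 with KAP1 at retroelements and by the G9a-GLP pair, encoded by Ehmt2 and Ehmt1, in euchromatin and at the nuclear edge. HP1 proteins bind the methylated tail through a chromodomain and bring in further silencing factors, while EZH2, the catalytic subunit of Polycomb repressive complex 2 (PRC2), marks lysine 27 and is a known target of the E2F factors of the cell cycle. Lamin A and lamin C, the products of Lmna, tether heterochromatin to the nuclear envelope, and loss of peripheral heterochromatin with low H3K9me3, HP1 and EZH2 is a known feature of human progeria fibroblasts.

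Levels are FPKM, which are read counts scaled to transcript length and library depth, and the depth recovered from the steps of the values was 22424410 to 42622049 reads per library. The fibroblast label was checked against 10 fibroblast genes, none of which was at 0 in any library, and Col1a1 ranged from 1070 to 3160 FPKM. Of the 6 keratinocyte markers Krt1 was at 0 in all 18 libraries, Krt14 in 17, Krt5 in 12, Epcam in 5 and Cdh1 in 1, while Krt10 was at 0.757 to 1.39 FPKM and was at 0 in none, and the list summed to 0.784 to 1.89 FPKM. The 7 melanocyte and Schwann cell markers summed to 5.53 to 23.1 FPKM, led by Mitf at 3.19 to 6.48 and Sox10 at 0.319 to 8.42 FPKM. All 10 macrophage markers were above 0 in every library, and their summed level ranged from 68.0 to 1514 FPKM. Lmna itself, whose transcript level does not measure editing, ranged from 195.7 to 381.4 FPKM, and its difference between guides and gMock in Pro/Pro cells was -0.25 ± 0.15 on the log2(FPKM + 1) scale (estimate ± SE, limma with Benjamini-Hochberg adjustment over 12599 genes, adjusted p = 0.74). The Lmna transcript used, with a mean of 275.7 FPKM, reaches neither the 5′ nor the 3′ end of a longer listed transcript, whose mean was 198.4 FPKM. Its own parts 1 and 2, at its 5′ end, held only 5 and 6 reads over the 18 libraries.

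The 10 genes covered a wide range of levels, with some neighbours in the order of their means trading places between libraries and others not. Ehmt2 was the highest, at 28.9 to 35.2 FPKM with a mean of 32.6 ± 1.93 (SD, 18 libraries), and its highest library was only 1.22 times its lowest. Cbx1 followed at 14.2 ± 2.34 FPKM and Cbx5 at 8.69 ± 1.10 FPKM, and each of these steps held in 18 of 18 libraries. The order is one of averages over the annotated parts of a transcript, which can differ in level. In Cbx1, parts 3 to 6 had means of 16.1 to 35.9 FPKM, while part 1 had 3.37 and part 8, the last, 1.15. Suv39h1 (7.88 ± 0.911 FPKM) and Setdb1 (7.78 ± 0.778 FPKM) could not be ordered, since Suv39h1 was higher in 9 of 18 libraries. The same held for Sirt6 (6.55 ± 0.897 FPKM) and Ehmt1 (6.29 ± 1.19 FPKM), where Sirt6 was higher in 10 of 18.

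Ezh2 had a mean of 4.23 ± 1.03 FPKM and was the least steady of the genes above 1 FPKM, with a highest library 2.59 times its lowest and a coefficient of variation of 24.4%, against 5.93% for Ehmt2. Cbx3 stood at 2.51 ± 0.563 FPKM. Suv39h2 was the lowest, at 0.34 to 0.82 FPKM from 33 to 132 reads per library. This too is an average over uneven parts: parts 2 to 4 had means of 1.32 to 1.60 FPKM. Part 1 had 0.264 and the long last part 0.346 FPKM. Because only genes that reached 1 FPKM in 2 or more libraries were tested, 9 of the 10 entered the tests and Suv39h2 did not.

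**Figure D1:**
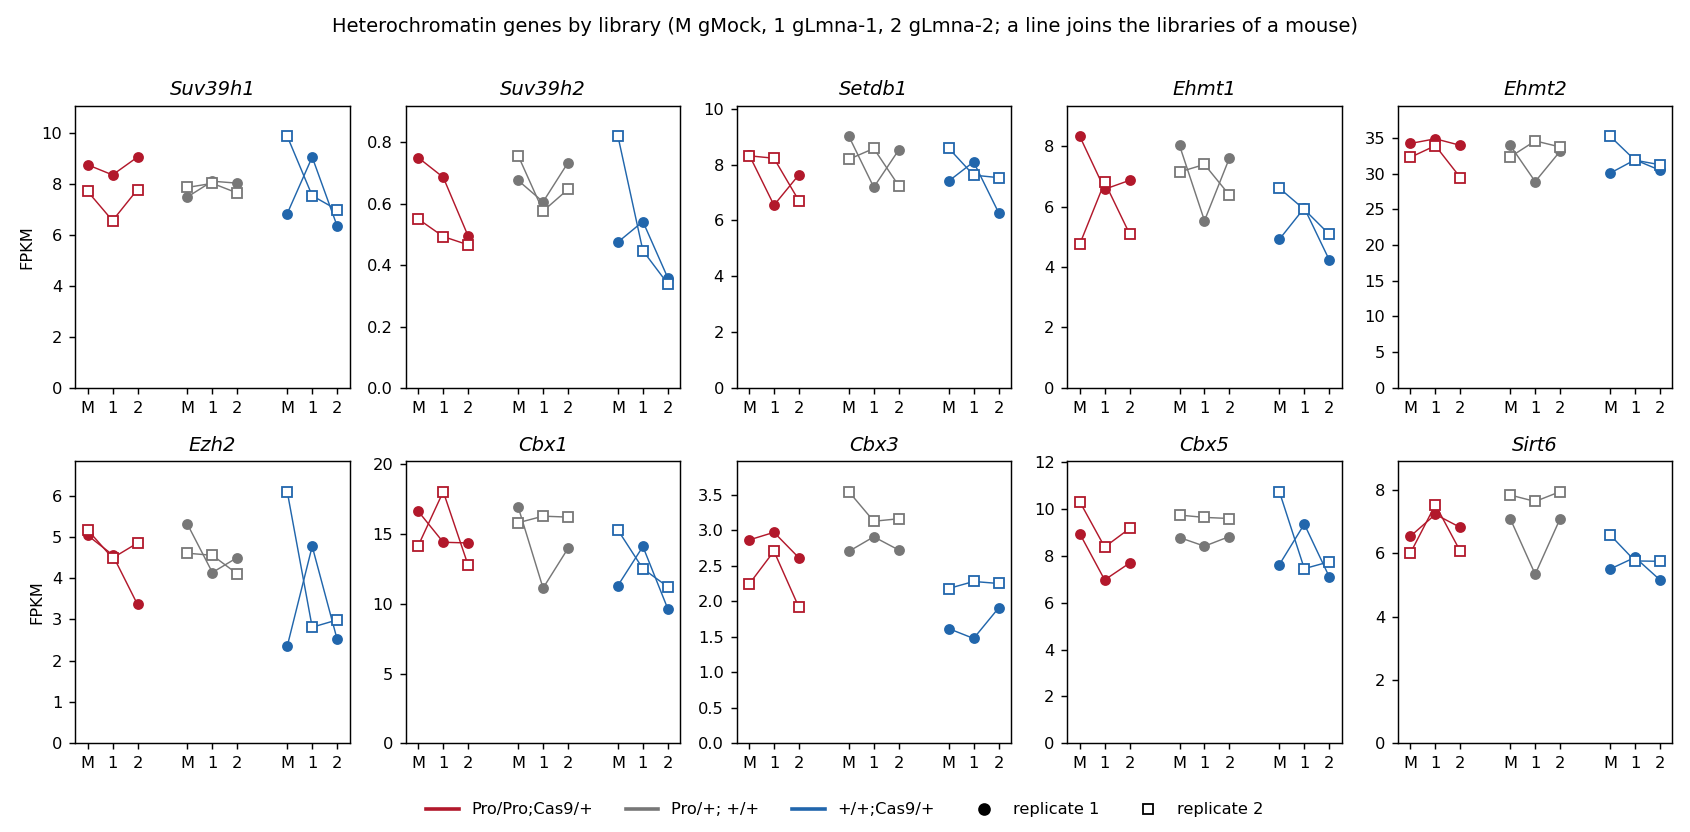
Level of each of the 10 genes in the 18 libraries, in FPKM on axes that start at 0, grouped by genotype and within it by treatment (M is gMock, 1 is gLmna-1, 2 is gLmna-2); filled circles are replicate 1, open squares replicate 2, and a line joins the 3 libraries of a mouse. Ehmt2 lies between 28.9 and 35.2 FPKM throughout, and Ezh2 spreads from 2.35 to 6.09 FPKM within the wild-type Cas9 cells alone.

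The central comparison asked what the Lmna guides did in Pro/Pro cells, which have the progeria allele and Cas9. None of the 9 tested genes passed the threshold of an adjusted p of 0.05, where 0.0794% of the 12599 genes did (limma on log2(FPKM + 1) with the mouse as a block, mean of both guides against gMock). The number of the 9 with an unadjusted p under 0.05 was 0 (8.37% of all tested genes), and limma voom on the recovered reads also called 0. The estimates had a median of -0.05, against -0.01 over all tested genes, and 8 of 9 were below 0. The same count, 8 of 9, was below 0 in Pro/+ cells, which have no Cas9, and in wild-type Cas9 cells. In bulk RNA a lower level in each cell and fewer cells with a high level cannot be told apart.

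Among the H3K9 methyltransferases, Setdb1 stood at 8.36 and 8.31 FPKM in the gMock libraries of the 2 Pro/Pro mice, at 6.54 and 8.22 in the gLmna-1 libraries and 7.63 and 6.70 in the gLmna-2 libraries. All 4 guide libraries lay below both gMock libraries, a separation found for 7.6% of all tested genes. The difference was -0.18 ± 0.12 (log2 scale, SE, 95% interval -0.45 to 0.09, limma adjusted p = 0.79). Leaving out replicate 1 with gLmna-1 gave -0.09, leaving out replicate 2 with gLmna-2 gave -0.10, and leaving out replicate 2 with gLmna-1 gave -0.27. For Suv39h1 the difference was -0.05 ± 0.12, for Ehmt1 -0.01 ± 0.16 and for Ehmt2 -0.01 ± 0.08 (adjusted p = 0.95, 1.0 and 0.99). The intervals show how far these values are bounded: for Ehmt2 it ran from -0.19 to 0.17, and for Ehmt1 from -0.37 to 0.36. The Ehmt1 value hides a split between the gMock libraries, which were at 8.33 and 4.75 FPKM, wider apart than the 4 guide libraries at 5.10 to 6.87 FPKM. Without the first of them the Ehmt1 difference was 0.26, and without the second it was -0.27. Suv39h2, below the filter, was at 0.75 and 0.55 FPKM with gMock and 0.47 to 0.69 FPKM with the guides, lower than gMock of the same mouse in 4 of 4 guide libraries, and without the filter its difference was -0.10 ± 0.08 (adjusted p = 0.84).

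Ezh2, the H3K27 methyltransferase, was at 5.04 and 5.17 FPKM in the gMock libraries of the Pro/Pro mice, at 4.57 and 4.49 in the gLmna-1 libraries and 3.36 and 4.85 in the gLmna-2 libraries. Each guide library was below gMock of its own mouse, and the groups did not overlap, as for 7.6% of all tested genes. Of the 9 genes, 2 separated in this comparison, Setdb1 and Ezh2. The Ezh2 estimate was -0.21 ± 0.26 (95% interval -0.80 to 0.39, limma adjusted p = 0.91), the widest interval of the 9 genes. That SE rests on a spread shared by all 3 genotypes. Within a mouse, guide minus gMock ran from -0.469 to -0.077 in Pro/Pro and from -0.296 to -0.013 in Pro/+ cells. In wild-type Cas9 cells it ran from -0.896 to 0.784.

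Of the HP1 genes, Cbx5 had the lowest estimate of all 9 genes. Its level was 8.95 and 10.3 FPKM with gMock, 6.97 and 8.37 in the gLmna-1 libraries and 7.69 and 9.16 in the gLmna-2 libraries, below gMock of the same mouse in 4 of 4 guide libraries although the groups overlapped. The difference was -0.24 ± 0.12 (95% interval -0.51 to 0.04, limma adjusted p = 0.67). Cbx1 stood at 16.6 and 14.2 FPKM with gMock and 12.7 to 18.04 FPKM with the guides (-0.05 ± 0.15, adjusted p = 0.96), and its highest value in the series, 18.04 FPKM, was in replicate 2 with gLmna-1. Without the first gMock library the Cbx1 difference was 0.09, and without the second it was -0.20. Cbx3 was at 2.86 and 2.24 FPKM with gMock and 1.91 to 2.97 FPKM with the guides, and its estimate was at 0 within its error (-0.004 ± 0.095, adjusted p = 1.0).

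Sirt6 was the one gene with an estimate above 0. It stood at 6.54 and 6.01 FPKM with gMock, 7.23 and 7.54 in the gLmna-1 libraries and 6.82 and 6.06 in the gLmna-2 libraries, above gMock of the same mouse in 4 of 4 guide libraries. The last of these was above by only 0.01 on the log2 scale, and the groups overlapped. The estimate was 0.12 ± 0.09 (95% interval -0.09 to 0.33, limma adjusted p = 0.83).

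**Figure D2:**
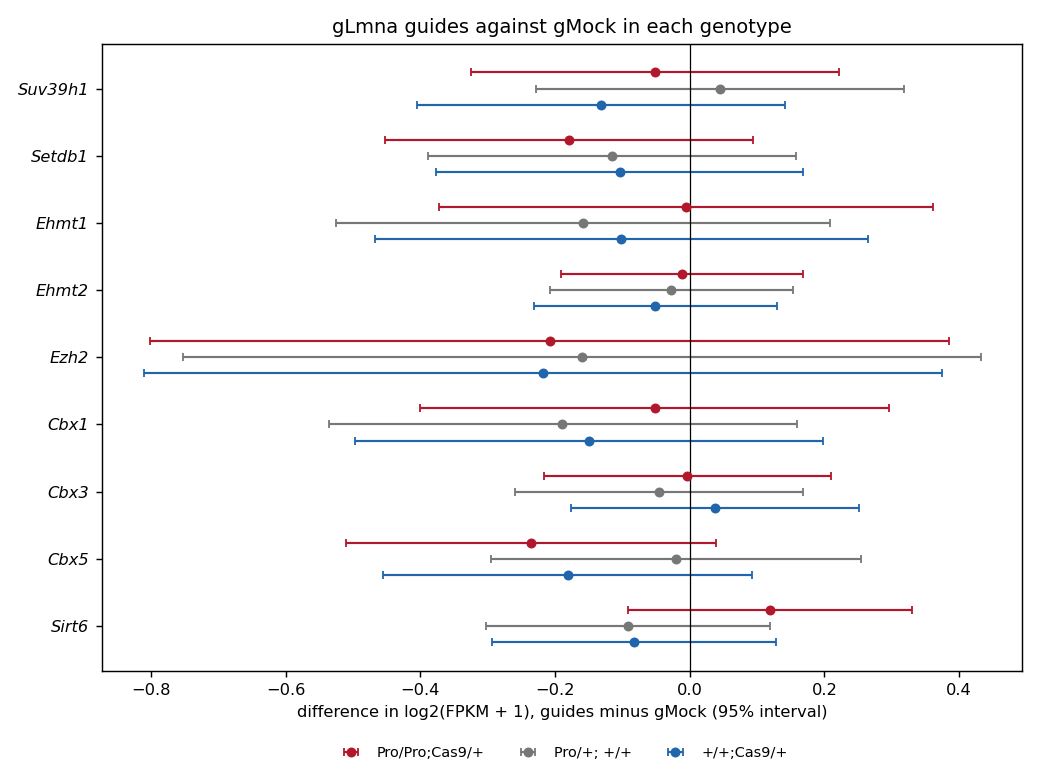
Difference between the Lmna guides (mean of both) and gMock for the 9 tested genes in each genotype, as log2(FPKM + 1), points with 95% intervals from the fit of all 18 libraries. All 27 intervals include 0, and those of Ezh2 reach from -0.81 to 0.43.

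The same contrast was read in the other genotypes, of which the wild-type Cas9 cells also have both Lmna and Cas9. In Pro/+ cells, which have no Cas9, 0 of 9 genes passed (0.0% of all tested genes, 0 of the 9 and 3.15% of all genes at an unadjusted p under 0.05, 0 of the 9 by voom), and the median of the 9 was -0.09 against -0.04 over all genes. Their estimates ran from -0.19 for Cbx1 to 0.05 for Suv39h1. Cbx1 was at 11.1 FPKM in replicate 1 with gLmna-1 and at 14.0 to 17.0 FPKM in the other 5 libraries, and its difference was -0.07 without that library, 0.04 without the replicate 1 gMock library and -0.41 without that of replicate 2. The low library was also the lowest of the 6 for Ehmt1 (5.53 FPKM), Ehmt2 (28.9 FPKM), Setdb1 (7.19 FPKM) and Sirt6 (5.34 FPKM). Ezh2 was at 5.31 and 4.60 FPKM with gMock and 4.10 to 4.55 FPKM with the guides, so that here too all 4 guide libraries lay below both gMock libraries, as for 8.77% of all tested genes (-0.16 ± 0.26, limma adjusted p = 1.0).

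In wild-type Cas9 cells 0 of 9 genes passed, where 0.849% of all tested genes did (0 of the 9 and 7.61% of all genes at an unadjusted p under 0.05, 0 of the 9 by voom). The median was -0.10 against -0.02 over all genes, from -0.22 for Ezh2 to 0.04 for Cbx3. No group pair separated for any of the 9, where 16.3% of all genes had guide and gMock libraries that did not overlap. The Ezh2 value turned on single libraries. It was -0.86 without the replicate 1 gMock library and 0.43 without that of replicate 2, and it was -0.53 and 0.09 without the gLmna-1 libraries of replicates 1 and 2. The Cbx5 difference of -0.18 ± 0.12 (limma adjusted p = 0.77) became -0.45 and 0.09 without the gMock libraries of replicates 1 and 2.

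Tested directly, the guide effect in Pro/Pro cells differed from that in Pro/+ cells for 0 of 9 genes (0.0% of all tested genes) and from that in wild-type Cas9 cells for 0 of 9 (0.0476%). Both counts were also 0 at an unadjusted p under 0.05, where 4.15% and 3.03% of all genes were, and 0 by voom. The highest estimates were those of Sirt6, at 0.21 ± 0.13 against Pro/+ cells and 0.20 ± 0.13 against wild-type Cas9 cells (limma adjusted p = 1.0 for both), and the lowest were Cbx5 at -0.22 ± 0.17 and Setdb1 at -0.08 ± 0.17. Both of these comparisons use the same Pro/Pro libraries, so their values are not independent. The Ezh2 estimates stood side by side at -0.21 in Pro/Pro, -0.16 in Pro/+ and -0.22 in wild-type Cas9 cells, each with the same SE of 0.26 from the shared spread.

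The 2 guides were also set against each other and singly against gMock. In Pro/Pro cells gLmna-2 differed from gLmna-1 for 9.95% of all tested genes and for 0 of the 9 (0 of the 9 and 25.2% of all genes at an unadjusted p under 0.05, 0 of the 9 by voom). Cbx3 had the lowest estimate, from 2.97 and 2.70 FPKM with gLmna-1 to 2.61 and 1.91 with gLmna-2 (-0.24 ± 0.11, limma adjusted p = 0.21), and Suv39h1 the highest (0.16 ± 0.14, adjusted p = 0.54). Sirt6 was lower with gLmna-2 than with gLmna-1 in both mice (-0.17 ± 0.11, adjusted p = 0.37), and higher with gLmna-2 than with gLmna-1 in both Pro/+ mice, at 7.10 and 7.95 against 5.34 and 7.64 FPKM (0.20 ± 0.11, adjusted p = 1.0). The difference between these differences was -0.38 ± 0.15 (95% interval -0.72 to -0.03, unadjusted p = 0.036, limma adjusted p = 0.24). It was the one value under 0.05 without adjustment in that comparison, in which 2.38% of all genes and 0 of the 9 passed, 0 by voom as well, and 17.9% of all genes had an unadjusted p under 0.05. Without the low Pro/+ library named above, replicate 1 with gLmna-1, it was -0.22.

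Against gMock alone, gLmna-1 in Pro/Pro cells gave 0 of 9 (0.976% of all tested genes) and gLmna-2 gave 0 of 9 (0.357%), with 0 by voom in each. At an unadjusted p under 0.05 there were 0 of 9 in each, against 17.98% and 10.1% of all genes. With gLmna-1 the estimates ran from -0.30 ± 0.14 for Cbx5 to 0.21 ± 0.11 for Sirt6 (limma adjusted p = 0.31 and 0.37). With gLmna-2 they ran from -0.27 ± 0.30 for Ezh2 to 0.03 ± 0.11 for Sirt6 (adjusted p = 0.90 and 0.98). These comparisons share the gMock libraries. Between the guides, 0 of 9 differed in wild-type Cas9 cells (0.0% of all tested genes), where Cbx1 was lowest at -0.33 ± 0.18, and 0 of 9 in Pro/+ cells (0.0%), again with 0 by voom and 0 at an unadjusted p under 0.05, where 8.01% and 2.11% of all genes were.

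The genotypes were compared under gMock and with the guides. Under gMock, 0 of 9 genes differed between Pro/Pro and wild-type Cas9 cells, where 0.397% of all tested genes did (0 of the 9 and 10.4% of all genes at an unadjusted p under 0.05, 0 of the 9 by voom). The median was 0.08 against 0.003 over all genes, and the estimates ran from -0.002 for Suv39h1 to 0.32 for Ezh2. Ezh2 was at 5.04 and 5.17 FPKM in Pro/Pro cells and at 2.35 and 6.09 FPKM in wild-type Cas9 cells, so the levels of Pro/Pro cells fell between those of the wild-type mice (0.32 ± 0.34, 95% interval -0.52 to 1.17, limma adjusted p = 0.96). Without the second wild-type mouse the Ezh2 estimate was 0.87, and without the first it was -0.22.

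Cbx3 was the 1 tested gene of the 9 whose Pro/+ and wild-type Cas9 libraries did not overlap over all treatments. In gMock cells it was at 2.86 and 2.24 FPKM in Pro/Pro, 2.70 and 3.54 in Pro/+ and 1.62 and 2.18 in wild-type Cas9 cells. Over all treatments the 6 Pro/+ libraries lay at 2.70 to 3.54 FPKM and the 6 wild-type Cas9 libraries at 1.48 to 2.28 FPKM without overlap, a separation found for 15.9% of all tested genes. Between Pro/Pro and wild-type Cas9 cells 0 of the 9 genes separated over all treatments (6.68% of all tested genes), and under gMock Cbx3 alone of the 9 did (34.7%). Under gMock the Pro/+ cells were above wild-type Cas9 cells by 0.51 ± 0.20 (95% interval 0.03 to 0.99, unadjusted p = 0.042, limma adjusted p = 0.38, and 0.29 to 0.56 under other settings). It was the 1 of the 9 genes under 0.05 without adjustment, where 12.5% of all genes were, and 0 of 9 passed (0.413% of all tested genes, 0 by voom). In that comparison 4 of the 9 genes did not overlap, namely Ehmt1, Cbx1, Cbx3 and Sirt6, all higher in Pro/+ cells, where 50.5% of all genes did not overlap between 2 libraries and 2. Pro/+ and wild-type Cas9 cells differ in the Lmna allele and in Cas9, and these cannot be told apart.

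With the guides, Pro/Pro and wild-type Cas9 cells differed for 0 of 9 genes (0.595% of all tested genes, 0 by voom), although 8 of 9 estimates were above 0 and the median was 0.22 against 0.02 over all genes. The highest was Ezh2 at 0.33 ± 0.12 (95% interval 0.05 to 0.62, unadjusted p = 0.030, limma adjusted p = 0.24), the one of the 9 under 0.05 without adjustment, where 16.3% of all genes were. The cell cycle genes stood the same way: 32 of 35 tested had estimates above 0 with a median of 0.33, 17 had an unadjusted p under 0.05, and 0 passed by limma or by voom. Next came Cbx1 (0.31 ± 0.13, adjusted p = 0.31), Cbx3 (0.25 ± 0.14, adjusted p = 0.45), Sirt6 (0.25 ± 0.12, adjusted p = 0.36) and Ehmt1 (0.22 ± 0.10, adjusted p = 0.33). Sirt6 was the 1 gene of the 9 whose guide libraries did not overlap, at 6.06 to 7.54 FPKM in Pro/Pro and 5.16 to 5.87 FPKM in wild-type Cas9 cells, and 11.3% of all genes separated in this way. The macrophage genes also stood apart by genotype: under gMock their summed level was 584 to 717 FPKM in Pro/Pro and 68.0 to 244 FPKM in wild-type Cas9 cells, and 9 of 9 tested had estimates above 0 with a median of 1.69, of which 0 passed by limma or by voom and 8 had an unadjusted p under 0.05 against 10.4% of all genes. With the guides the summed level was 459 to 1514 FPKM in Pro/Pro and 160 to 418 FPKM in wild-type Cas9 cells, and Mrc1, a macrophage receptor gene, passed (1.45 ± 0.14, limma adjusted p = 0.034). The part of the macrophage and cell cycle genes in the values of the heterochromatin genes was not tested.

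**Figure D3:**
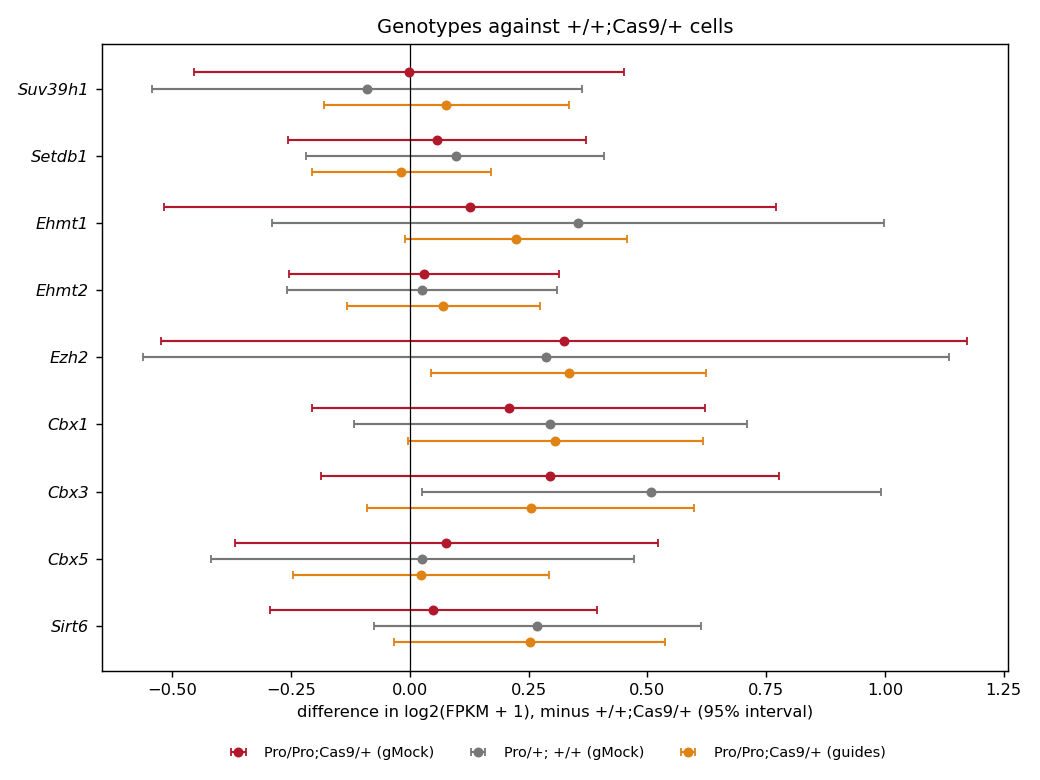
Difference of Pro/Pro and Pro/+ cells from wild-type Cas9 cells for the 9 tested genes, as log2(FPKM + 1), points with 95% intervals, under gMock (red and grey) and for Pro/Pro cells with the guides (orange). The intervals that lie above 0 are those of Cbx3 for Pro/+ cells under gMock (0.03 to 0.99) and of Ezh2 for Pro/Pro cells with the guides (0.05 to 0.62), and neither gene passed after adjustment.

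For Ezh2, Suv39h1, Suv39h2 and Cbx5 the 6 wild-type Cas9 libraries were the widest apart of the 3 genotypes, and their order did not follow the treatment. The SD of Ezh2 was 1.51 FPKM there, 0.651 in Pro/Pro and 0.436 in Pro/+ libraries. The other 6 genes had their largest SD in another genotype. Of the 6 wild-type Cas9 libraries, replicate 1 with gLmna-1 and replicate 2 with gMock were the highest for 9 of the 10 genes, Cbx3 being the exception. This order held for 8 of the 9 tested genes, where 10.8% of all tested genes had it. Of the 98 tested genes of the related lists given further below, 24 had it. The libraries were named from the values themselves, so the counts describe the order and do not test it. Ezh2 was at 4.77 and 6.09 FPKM in these libraries and at 2.35 to 2.99 FPKM in the other 4. Suv39h1 was at 9.04 and 9.86 FPKM against 6.34 to 7.53, and Cbx5 at 9.35 and 10.7 FPKM against 7.10 to 7.74. Mki67, the gene of the proliferation marker Ki-67, was at 3.61 and 6.56 FPKM in the same libraries and at 0.70 to 1.48 FPKM in the others, and 33 of 35 tested cell cycle genes had the same order.

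The level of each gene was therefore set beside the mean log2 level of 36 cell cycle genes, as a description over 18 libraries that share mice, depth and normalisation. Pearson's r was 0.91 for Ezh2, 0.83 for Cbx5, 0.83 for Suv39h2 and 0.68 for Suv39h1. After the mean of each mouse was removed it was 0.94, 0.87, 0.86 and 0.86. Lower values were found for Cbx1 (0.66 and 0.59), Setdb1 (0.59 and 0.52) and Ehmt1 (0.54 and 0.46). They were also lower for Ehmt2 (0.46 and 0.48), Sirt6 (0.49 and 0.29) and Cbx3 (0.36 and -0.22). Mki67 was also lower than gMock of the same mouse in 4 of 4 guide libraries of Pro/Pro cells. In that comparison all 35 tested cell cycle genes had estimates below 0 with a median of -0.34, of which 0 passed by limma or by voom and 0 had an unadjusted p under 0.05. The median was -0.50 in wild-type Cas9 cells and -0.04 in Pro/+ cells. The part of the cell cycle level in the Ezh2 and Cbx5 values was not tested.

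**Figure D4:**
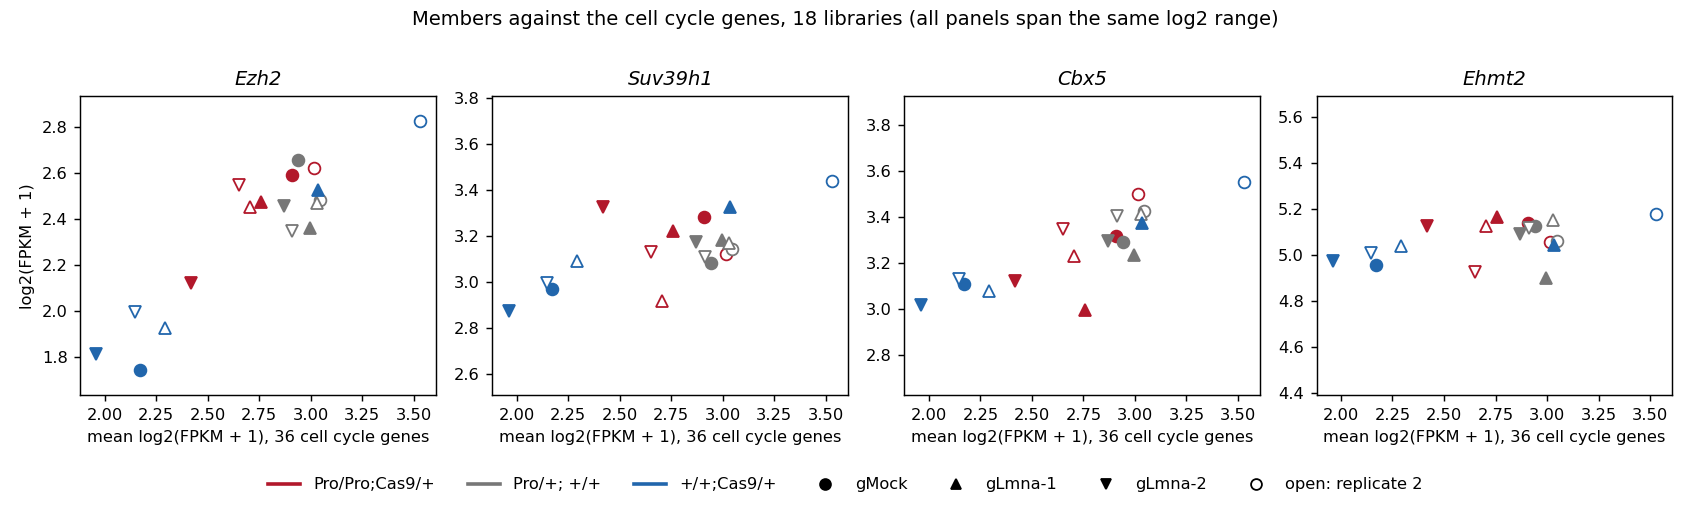
Level of Ezh2, Suv39h1, Cbx5 and Ehmt2 in each of the 18 libraries against the mean log2(FPKM + 1) of 36 cell cycle genes, by genotype (colour), treatment (shape) and replicate (open for replicate 2), with panels that span the same log2 range. Ezh2 has r = 0.91 and a highest library 2.59 times its lowest, and Ehmt2 has r = 0.46 and a narrow range of 1.22 times.

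High values were also found around Cbx1, without a clear split from the genes above, since Cbx1 had r = 0.71 with Ezh2. Cbx1 had r = 0.86 with Sirt6, 0.81 with Ehmt1 and 0.79 with Ehmt2 over the 18 libraries, and 0.80, 0.91 and 0.84 after the mean of each mouse was removed. Setdb1 then had 0.80 with Cbx1 and 0.78 with Ehmt1. Over the 45 pairs of the 10 genes r ranged from 0.11, for Suv39h1 with Cbx3, to the 0.86 of Cbx1 with Sirt6. After the mean of each mouse was removed it ranged from -0.58, for Suv39h1 with Cbx3, to 0.91. The genes outside the list whose pattern was most like the mean of the 9 tested were Plk1 (r = 0.93), the mitotic kinase, Ncapg (0.93), a condensin subunit, Hnrnpa2b1 (0.93), an RNA-binding protein, Fzr1 (0.92), an activator of the anaphase-promoting complex, and D17H6S56E-5 (0.92). Plk1 ranged from 0.896 to 12.8 FPKM, and Hnrnpa2b1 from 86.2 to 136 FPKM.

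Since several of the genes varied with the cell cycle genes, the promoters were read for short motifs. The sequences are the 150 bases before the RefSeq start in GRCm38.p6, 5′ to 3′ on the strand of the gene, with matches to E2F-type and CCAAT motifs in capitals. The promoters of Sirt6 and Cbx3, which also have an E2F-type match, are not shown. Shown are Ezh2, which had the highest r with the cell cycle genes, and Suv39h1, Suv39h2 and Cbx1, each with an E2F-type match. They lie at chr6:47595031-47595180 (minus strand), chrX:8074362-8074511 (minus), chr2:3474987-3475136 (minus) and chr11:96788985-96789134 (plus).
Ezh2: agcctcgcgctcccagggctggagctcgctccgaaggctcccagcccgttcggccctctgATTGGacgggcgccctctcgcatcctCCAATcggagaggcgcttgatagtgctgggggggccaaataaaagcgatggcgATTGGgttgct
Suv39h1: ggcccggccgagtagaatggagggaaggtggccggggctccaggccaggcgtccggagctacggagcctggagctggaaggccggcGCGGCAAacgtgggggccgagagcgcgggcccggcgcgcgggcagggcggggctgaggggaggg
Suv39h2: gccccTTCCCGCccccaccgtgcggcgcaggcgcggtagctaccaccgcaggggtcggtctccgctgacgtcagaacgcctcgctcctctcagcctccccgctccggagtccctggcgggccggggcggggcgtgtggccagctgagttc
Cbx1: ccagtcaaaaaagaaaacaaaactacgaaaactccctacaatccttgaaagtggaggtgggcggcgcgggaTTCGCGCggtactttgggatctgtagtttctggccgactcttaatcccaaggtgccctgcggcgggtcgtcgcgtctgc

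In the 250 bases before the start, an E2F-type match (the letters TTCCCGC or else TTCGCGC, as well as TTGGCGC or else TTGCCGC, on either strand) was present in a promoter of Suv39h1, Suv39h2, Cbx1, Cbx3 and Sirt6, which is 5 of the 15 promoters listed for the 10 genes, and in 7.9% of all 32851 promoters. Ezh2 had no such match in this window and 3 matches to CCAAT, at 11, 64 and 90 bases before the start, a motif present in 33.8% of all promoters. CCAAT was also found in a promoter of Suv39h1, Setdb1 and Cbx5. The cell cycle homology motif (TTTGAA or TTCGAA), present in 17.1% of all promoters, and TATAAA, present in 12.4%, were found in none of the 10 genes. With mouse means removed, r with the cell cycle genes was 0.86 for Suv39h1 and Suv39h2, 0.59 for Cbx1, 0.29 for Sirt6 and -0.22 for Cbx3. These have an E2F-type match. Without one, it was 0.94 for Ezh2, 0.87 for Cbx5, 0.52 for Setdb1, 0.48 for Ehmt2 and 0.46 for Ehmt1. The part of the motifs in the levels was not tested. These matches are letters in a window, and several genes have more than 1 start.

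Cbx3 needs a word on how it was counted. Its deposited transcript at chr6:51470616-51483704 (mm10, plus strand) has 8 parts, and 67.3% of its 2492 reads over the 18 libraries fell in 1 of them, the coding part of 95 bases at chr6:51481724-51481818. That part held 1677 reads at a mean of 32.8 FPKM, while the neighbouring coding parts 4, 5 and 7 held 12, 5 and 9 reads at 0.14, 0.06 and 0.13 FPKM. The Cbx3 total of 2.51 FPKM thus averages over parts of very different level and cannot be ranked against the levels of the other genes.

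The sequences of these 4 coding parts show how they differ. Each was searched in the transcripts of all other genes of the GENCODE annotation of GRCm38. Parts 4, 5 and 7 are identical over their whole length to 3, 3 and 2 other genes, among them the processed pseudogene Cbx3-ps6, and they have close copies (at least 90% identical) in 12, 22 and 10 genes. Part 6 has close copies in 15 genes and is identical to none. Its nearest copies, in Cbx3-ps6 and in the lincRNA gene Gm49164, each differ from it at 1 base, and the capital in the sequence marks the difference from Cbx3-ps6. Sequences are shown 5′ to 3′.
Cbx3 part 4: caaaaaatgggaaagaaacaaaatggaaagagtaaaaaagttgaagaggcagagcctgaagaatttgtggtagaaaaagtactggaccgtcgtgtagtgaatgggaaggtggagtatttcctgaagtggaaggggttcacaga
Cbx3 part 5: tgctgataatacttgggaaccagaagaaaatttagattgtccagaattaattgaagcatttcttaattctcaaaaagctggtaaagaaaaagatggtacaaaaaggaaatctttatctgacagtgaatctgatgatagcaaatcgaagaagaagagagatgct
Cbx3 part 6: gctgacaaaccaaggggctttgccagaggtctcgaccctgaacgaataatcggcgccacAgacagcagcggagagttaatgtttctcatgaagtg
Cbx3 part 7: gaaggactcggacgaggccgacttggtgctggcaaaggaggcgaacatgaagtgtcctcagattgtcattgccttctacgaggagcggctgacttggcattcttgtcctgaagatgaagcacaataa

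Both Cbx3 parts with 100 or more reads had their highest mean in Pro/+ and their lowest in wild-type Cas9 cells. Part 6 was at 37.0 FPKM on average in Pro/+ libraries (34.3 to 38.8), 35.6 in Pro/Pro (32.2 to 42.5) and 25.8 in wild-type Cas9 libraries (19.4 to 33.9). The last part, the 3′ untranslated region with 672 reads, had means of 1.51, 0.943 and 0.744 FPKM in the same order, with ranges of 1.09 to 2.24, 0.15 to 1.45 and 0.57 to 1.19 FPKM. How multiply mapped reads were treated is not given in the sources used here, and its part in the Cbx3 level was not tested.

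**Figure D5:**
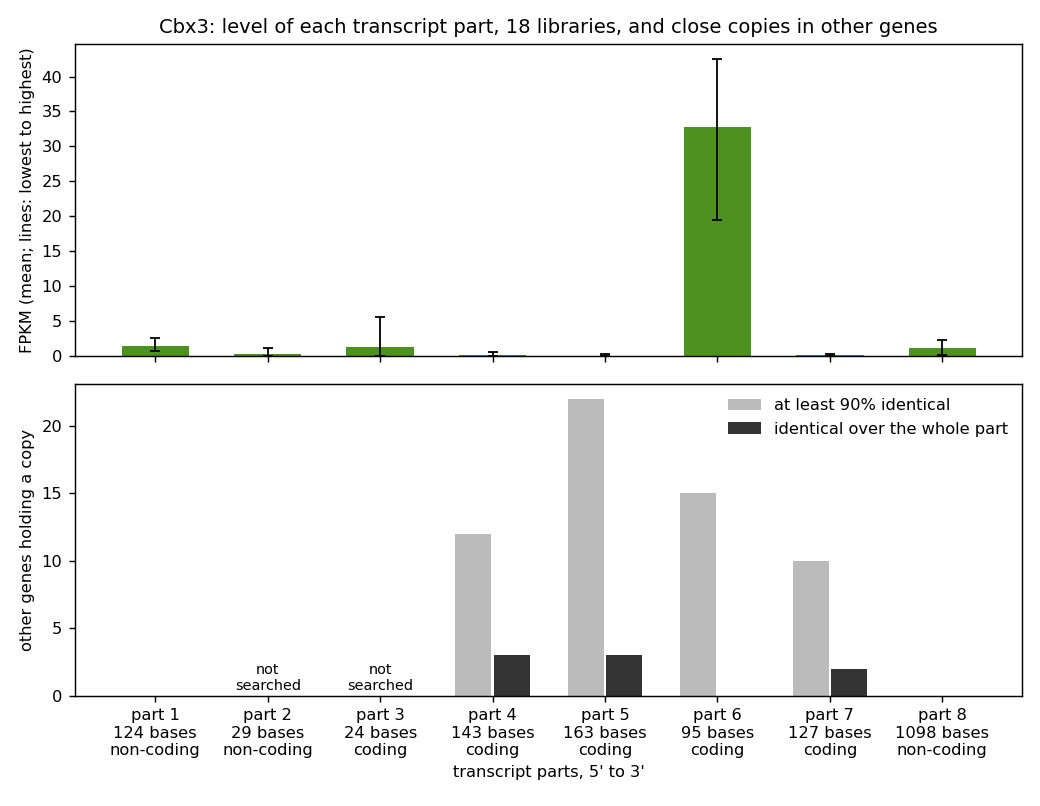
Cbx3 by transcript part, 5′ to 3′: above, the mean FPKM over the 18 libraries as bars with lines from the lowest to the highest library, on an axis that starts at 0, and below, the number of other genes with a copy at least 90% identical (grey) or identical over the whole part (black). Part 6, without an identical copy, is at 32.8 FPKM, and parts 4, 5 and 7, which have identical copies, are at 0.06 to 0.14 FPKM.

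Among the other genes, Setdb1 showed the same combination on a smaller scale. Its parts 1 and 4, identical over their length to the genes Gm37500 and Gm4349, were listed at 0 reads in all 18 libraries, and its part 3, which differs from Gm4349 at 1 base, held 93 of the 19531 reads of the transcript. Cbx1 and Cbx5 each have 1 processed pseudogene with close copies (Gm7128 and Gm13005), none identical, and no close copy was found for Ehmt1, Ehmt2 or Sirt6. Part of Suv39h1 is shared with the antisense gene Gm14820. Parts 3 and 4 of Suv39h2 are identical over their length to stretches of Dclre1c, so their reads cannot be told apart by sequence. The search did not separate copies elsewhere from genes that overlap at the same place. Part 10 of Ezh2 is identical to a stretch of Gm26625 and nevertheless held 371 reads. The strand of the protocol is not given in the sources used here, so reads of Suv39h1 and its antisense partner cannot be told apart. Parts of 1 transcript come from the same libraries, so their directions show how the gene's estimate was made up and add no independent evidence. For Ezh2, 14 of 17 parts with at least 100 reads were lower with the guides in Pro/Pro cells, 14 of 17 in Pro/+ and 16 of 17 in wild-type Cas9 cells. For Cbx5 it was 5 of 5, 4 of 5 and 5 of 5, and for Ehmt2 14, 16 and 18 of 27. Sirt6, the gene with an estimate above 0 in Pro/Pro cells, had 4 parts higher and 4 lower there.

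The wider machinery was read from 9 lists, of the partners of H3K9 methylation, H3K9 and H3K27 demethylases, PRC2, the other Polycomb complex PRC1, H4K20 methyltransferases, HP1 partners, sirtuins and the NuRD deacetylase complex. They hold 103 genes, 98 of them tested, and 0 of 98 passed in any of the 14 comparisons by limma or by voom, at the shares of all genes given with each comparison. The number with an unadjusted p under 0.05 was 1 of 98 with the guides in Pro/Pro cells, where 8.37% of all genes were under it, and at most 10 of 98, between the guides in Pro/Pro cells, where 25.2% were. With the guides in Pro/Pro cells the median of the 98 was -0.05 and 68 were below 0, and in Pro/+ cells, without Cas9, it was -0.03 with 68 below 0. The NuRD subunit gene Gatad2b had the smallest p of the 98 in Pro/Pro cells (-0.24 ± 0.10, adjusted p = 0.54). The PRC2 genes had a median of -0.06 over 10 tested in Pro/Pro cells and -0.12 in wild-type Cas9 cells, and their smallest p was in each that of Rbbp7, a histone-binding subunit (adjusted p = 0.70 and 0.52).

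The smallest adjusted p of the lists was that of Daxx, the histone H3.3 chaperone listed with the HP1 partners, in wild-type Cas9 cells with the guides (-0.51 ± 0.10, limma adjusted p = 0.072). Its estimate was 0.01 ± 0.10 in Pro/Pro and 0.08 ± 0.10 in Pro/+ cells, and the difference between Pro/Pro and wild-type Cas9 cells was 0.51 ± 0.14 (adjusted p = 0.65). Between the guides in Pro/Pro cells it was Kdm4b, an H3K9 demethylase gene, lower with gLmna-2 than with gLmna-1 by the estimate (-0.49 ± 0.15, adjusted p = 0.074). Between Pro/Pro and wild-type Cas9 cells with the guides it was Mecom, from the list of partners of H3K9 methylation (0.82 ± 0.17, adjusted p = 0.086).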

How the data were processed

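RNA levels were measured in 18 fibroblast libraries. Reads were aligned with STAR 2.4.0k to mm10 after FastQC 0.11.2, per the submitters' processing notes, and the authors computed FPKM per exon part of each transcript with HOMER, per the file headers. Length columns deposited with the table were used, with FPKM, to recover whole reads (100% of values within 0.05 of a whole number), 22424410 to 42622049 per library. Parts were summed to transcripts, named from RefSeq (36474 transcripts) or GENCODE (194), and 127 had no symbol. The table has 24 library columns, and 6 of them match no labelled sample and were not used.

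Log2(FPKM + 1) was fitted with limma 3.58.1 in R 4.3.3 over 12599 genes at 1 FPKM or more in at least 2 libraries, with Benjamini-Hochberg adjustment and a threshold of 0.05. Guide comparisons used all 18 libraries with the mouse as a block, since each mouse gave all 3 treatments. Deviations of libraries of the same mouse correlated at -0.02 to 0.78 in Pro/Pro, 0.47 to 0.73 in Pro/+ and 0.18 to 0.59 in wild-type Cas9 cells. Genotype comparisons used 1 value per mouse. Each fit took 1 estimate of the spread per gene over all 3 genotypes. In the genotype comparisons, with 2 mice per genotype, p-values measure the spread between few animals. In the guide comparisons, with the mouse as a block, they measure the spread left within mice. The 10 genes were described in every comparison, with the genes of smallest p in each related list and the 5 genes of highest correlation with the mean of the tested members. Copies were searched with blastn 2.17.0, other tables and plots were made with Python 3.11.15 and matplotlib 3.10.9, and the fits were tested on simulated data. The members and lists were chosen with earlier results of these data known. Other settings tried were another pseudocount, no filter, the longest transcript, other scalings, voom, fewer groups, the other choice of block and leaving out each library.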

Additional observations from a re-analysis of the deposited data

How the results depend on the processing

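None of the 9 tested genes passed in any of the 14 comparisons under any setting tried, and the smallest adjusted p was 0.082, for Sirt6 between the guides in Pro/Pro cells after quantile normalization (limma). Without the replicate block the guide comparisons gave 0 called members, and with a replicate block the genotype comparisons gave 0. Of 376 values of named members under settings that kept all libraries, 6 had the other sign, none past 0.029 in size. With the libraries scaled to the same median the guide difference in Pro/Pro cells was 0.008 for Ehmt1, 0.002 for Ehmt2 and 0.009 for Cbx3. Suv39h1 between Pro/Pro and wild-type Cas9 cells under gMock was 0.00039 with the longest transcript, 0.029 with median scaling and 0.016 with quantile normalization.

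Leaving out 1 library or mouse gave 29 values of 324 with the other sign. For the guides in Pro/Pro cells the ranges were -0.273 to 0.263 for Ehmt1, -0.046 to 0.024 for Ehmt2, -0.196 to 0.092 for Cbx1 and -0.049 to 0.042 for Cbx3, and without a change of sign -0.273 to -0.085 for Setdb1, -0.313 to -0.104 for Ezh2, -0.258 to -0.213 for Cbx5, -0.096 to -0.008 for Suv39h1 and 0.074 to 0.163 for Sirt6. In wild-type Cas9 cells they were -0.864 to 0.427 for Ezh2, -0.009 to 0.083 for Cbx3 and -0.449 to 0.087 for Cbx5, and in Pro/+ cells -0.005 to 0.095 for Suv39h1 and -0.414 to 0.037 for Cbx1. Sirt6 with gLmna-2 in Pro/Pro cells ranged from -0.028 to 0.092, Suv39h1 between the guides in Pro/+ cells from -0.081 to 0.007, and Setdb1 in the difference of guide effects between Pro/Pro and wild-type Cas9 cells from -0.169 to 0.019. Under gMock the ranges for Pro/Pro against wild-type Cas9 cells were -0.238 to 0.234 for Suv39h1 and -0.217 to 0.865 for Ezh2, and for Pro/+ against wild-type Cas9 cells -0.326 to 0.147 and -0.255 to 0.827. With the guides Setdb1 ranged from -0.056 to 0.02.

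The background counts depended on the fit: between the guides in Pro/Pro cells 1253 of all genes passed, 59 without the block, 0 with the Pro/Pro libraries alone and 140 to 2629 without 1 library, and for the guides against gMock there 10, 0, 0 and 1 to 152. Without 1 library or mouse the counts were 0 to 1773 (123 with all) for gLmna-1 and 0 to 181 (45) for gLmna-2 against gMock, 0 to 84 (107) for the guides in wild-type Cas9 cells, 0 to 2056 (300) for the difference between guides against Pro/+ cells and 0 to 22 (6) for the difference of guide effects against wild-type Cas9 cells. Against wild-type Cas9 cells under gMock they were 0 to 2 (50) for Pro/Pro and 0 to 179 (52) for Pro/+ cells, and with the guides 0 to 138 (75), so the background shares are themselves uncertain. Precision is limited by 2 mice per genotype. Because the spread is shared, the 95% intervals of the guide differences have the same width in all 3 genotypes. They reach from 0.18 for Ehmt2 to 0.593 for Ezh2 on either side of the estimate, and are not the spread of the Pro/Pro mice alone.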
